A study of Mus musculus with 17 samples.

Results

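CEBPB (C/EBPβ) occupied 1307 sites in unstimulated mouse macrophages that were again called after interferon gamma (IFNg) but were missing from the peak list of cells given IFNg and interleukin 4 (IL4) together. They were chosen by overlap of peak lists: a peak of the untreated CEBPB list had to share at least 1 bp with a CEBPB peak after 4 h of IFNg and with none after 4 h of IFNg+IL4. They made up 1307 of 5540 untreated CEBPB peaks, or 23.6%. The CEBPB list held 6278 peaks with IFNg+IL4 and 21499 with IFNg, and with the IFNg list cut to its 6278 strongest peaks the count was 650. Another 4225 peaks (76.3%) were in all 3 lists, 8 were in neither treated list, and none was listed with IFNg+IL4 and not with IFNg. The first set is called the unlisted sites below and the second the common sites. Since the values of the 3 CEBPB lists chose the sites, those values are a description, and a site missing from a list is not a site shown to be without CEBPB.

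The cells were macrophages grown from bone marrow of C57BL/6 mice in medium conditioned by L929 cells and used on day 7 of differentiation. The titles of the CEBPB, JUNB, IRF1 and MYC libraries mark them as wild type, and those of STAT6 and the input give no genotype. The groups were IFNg+IL4 (100 ng/ml IFNg and 10 ng/ml IL4), IFNg alone (100 ng/ml), IL4 alone (10 ng/ml) and untreated cells. CEBPB, JUNB and IRF1 were mapped by chromatin immunoprecipitation and sequencing (ChIP-seq) after 4 h of IFNg+IL4, after 4 h of IFNg and in untreated cells. STAT6 was mapped after 2 h of IFNg+IL4 and of IL4, and MYC after 2 h and 4 h of IFNg+IL4, after 2 h and 4 h of IL4 and in untreated cells. An input library came from untreated cells. Each group was 1 library without a replicate, and the number of animals behind a library is not given in the sources used here. No difference between treatments can therefore be set against a replicate spread, and no p-value was computed.

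CEBPB is a basic leucine zipper factor of the C/EBP family that binds DNA as a dimer at a partly palindromic site, written TTGCNNAA in the search below. In myeloid cells it occupies enhancers together with the lineage factor PU.1 and with AP-1, of which JUNB is a subunit, and it drives genes of inflammation and of myeloid differentiation. IFNg induces the factor IRF1 and produces the classical form of macrophage activation. IL4 acts through STAT6 and produces the alternative form, with MYC among the induced factors.

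The 16 ChIP lists held 144384 peaks, over all factors and treatments. The depths of the 3 CEBPB libraries, recovered from the peak values, were 1.31 times the input with IFNg+IL4, 1.33 times with IFNg and 1.46 times untreated. The weakest listed peak had a −log10 p of 5.27 with IFNg+IL4, 4.61 with IFNg and 5.27 untreated. As a check of the labelled cell type, 18 of 25 macrophage identity genes had an untreated CEBPB peak within 20 kb. This was so for 3 of 25 markers of other cell types and for 20.7% of all protein-coding genes. The lists were chosen with earlier results of these data known. RNA was not measured in these libraries.

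The DNA of unlisted sites is shown for promoters, since the sequence table used (RefSeq, GRCm38.p6, 250 bases before to 50 after each gene start) covers only these. Summits of unlisted sites fell in 27 such windows. Printed are the 6 strongest of them in untreated cells with a TTGCNNAA match, in the part of the peak upstream of the gene start. The sequence runs 5′ to 3′ on the strand of the gene, and the capitals mark the match on either strand.
Mmp27, chr9:7571175-7571395, plus strand: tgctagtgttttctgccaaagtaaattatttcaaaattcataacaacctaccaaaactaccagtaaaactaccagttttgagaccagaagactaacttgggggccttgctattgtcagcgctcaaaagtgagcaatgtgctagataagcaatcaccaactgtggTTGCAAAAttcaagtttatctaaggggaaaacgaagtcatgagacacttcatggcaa
Hrh1, chr6:114458272-114458474, plus strand: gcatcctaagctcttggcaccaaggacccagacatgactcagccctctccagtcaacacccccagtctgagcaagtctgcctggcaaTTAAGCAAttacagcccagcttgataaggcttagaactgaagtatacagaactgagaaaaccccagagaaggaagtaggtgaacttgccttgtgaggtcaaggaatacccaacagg
Anxa1, chr19:20390729-20390916, minus strand: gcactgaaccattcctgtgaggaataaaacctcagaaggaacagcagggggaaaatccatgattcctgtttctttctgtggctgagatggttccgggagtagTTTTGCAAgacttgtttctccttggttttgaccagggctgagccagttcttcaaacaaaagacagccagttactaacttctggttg
Rnase4, chr14:51095764-51095999, plus strand: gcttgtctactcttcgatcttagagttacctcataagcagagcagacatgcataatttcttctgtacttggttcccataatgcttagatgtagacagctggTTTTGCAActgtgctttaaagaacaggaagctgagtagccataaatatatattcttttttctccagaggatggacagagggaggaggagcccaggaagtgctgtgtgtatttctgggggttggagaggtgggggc
Eif4g1, chr16:20672497-20672657, plus strand: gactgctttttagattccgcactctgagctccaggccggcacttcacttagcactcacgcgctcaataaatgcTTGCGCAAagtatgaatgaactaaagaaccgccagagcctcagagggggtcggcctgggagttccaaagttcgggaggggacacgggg
Nlrc4, chr17:74459109-74459214, minus strand: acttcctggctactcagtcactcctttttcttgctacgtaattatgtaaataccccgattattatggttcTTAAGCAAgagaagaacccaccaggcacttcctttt
The 2 strongest with no match in the printed stretch, neither to TTGCNNAA nor to the looser TTNCNNAA, are given for comparison. They hold no capitals, and parts of both peaks lie outside the printed stretches.
Rab7, chr6:88045271-88045377, minus strand: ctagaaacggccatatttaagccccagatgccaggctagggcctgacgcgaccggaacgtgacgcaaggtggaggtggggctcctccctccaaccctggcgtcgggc
Eml2, chr7:19180920-19181028, plus strand: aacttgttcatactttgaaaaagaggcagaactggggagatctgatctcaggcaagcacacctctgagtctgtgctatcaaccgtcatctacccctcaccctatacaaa

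Fragment counts of single sites, here and below, are not scaled to depth, which was 1.33 times the input with IFNg and 1.46 times untreated. Untreated counts were read at the untreated summit. IFNg counts, here and below, were read at the summit of the strongest overlapping IFNg peak, which can lie elsewhere. Upstream of Mmp27, a matrix metalloproteinase gene next to Mmp8, the site had 36 fragments with IFNg and 51 untreated. The Hrh1 site, at a start of the histamine H1 receptor gene, had 78 fragments with IFNg and 42 untreated. At Anxa1, which encodes the anti-inflammatory phospholipid-binding protein annexin A1, the counts were 83 with IFNg and 40 untreated. The Rnase4 site (a secreted ribonuclease) had 65 fragments with IFNg and 43 untreated. Eif4g1, a scaffold of the translation initiation complex, had 33 with IFNg and 26 untreated, and Nlrc4, an inflammasome adaptor, 86 with IFNg and 31 untreated. Of the 2 promoters without a match in the printed stretch, Rab7, a late endosome GTPase gene, had 76 fragments with IFNg and 30 untreated. The other, Eml2, a microtubule-binding protein gene, had 57 with IFNg and 26 untreated. All but Mmp27 thus had more fragments with IFNg, and none was listed with IFNg+IL4.

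Of the 27 windows under unlisted sites 17 held TTGCNNAA (63%, 95% exact interval 42.4 to 80.6), against 116 of 249 windows under common sites (46.6%, 40.3 to 53) and 10.8% of all 32817 windows. Matches were counted on both strands. Some sites lay in the windows of a pair of neighbouring genes, such as Rnf166 and Ctu2 or Dido1 and Gid8. Windows are therefore not all separate sites, and the intervals do not allow for this. The looser TTNCNNAA, which includes every TTGCNNAA match, was in 85.2% of the windows of unlisted sites, in 74.7% of those of common sites and in 40.7% of all windows. TGATGCA, a composite of C/EBP and ATF sites, was in 0 of 27 windows of unlisted sites (exact upper limit 12.8%), in 8.43% of those of common sites and in 3.15% of all. AGGAAGT, a form of the PU.1 site, was in 8 of 27 windows of unlisted sites (29.6%, 13.8 to 50.2), in 12% of those of common sites (8.28 to 16.8) and in 9.35% of all. TGANTCA, the AP-1 site, was in 14.8% of the windows of unlisted sites, 9.24% of those of common sites and 7.81% of all. CACGTG, the E-box that MYC binds, was in 25.9% of the windows of unlisted sites, 14.5% of those of common sites and 7.15% of all. An interferon response element, GAAA repeated after any 2 bases, was in 3.7% of the unlisted, 4.02% of the common and 3.43% of all windows. The palindrome of TTC and GAA was in 3.7% of the unlisted, 9.64% of the common and 6.94% of all windows with the 4-base spacing of STAT6. The intervals of unlisted and common sites overlapped for each of these motifs, at the precision that 27 windows give. The median GC content was 53% in the unlisted, 55% in the common and 52.7% in all windows.

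Unlisted sites were weak sites of untreated cells. Their −log10 p in the untreated list had a median of 12.9, with a lowest value of 5.27 and a highest of 53, against a median of 24.8 for common sites. The median summit carried 32 fragments (15 to 86) at unlisted sites and 51 (16 to 226) at common sites. Peaks were also narrower, with a median of 200 bp at unlisted and 276 bp at common sites, while the background expected by the peak caller was close, at 2.83 fragments at input depth for unlisted and 3 for common sites. When the untreated list was cut into 10 classes of about equal size by −log10 p (deciles), unlisted sites made up 56.6% of the weakest (52.5 to 60.7) and 26.9% of decile 5. They were 5 of 554 peaks in decile 9 (0.903%, 0.294 to 2.09) and 0 of 554 in the strongest, which allows up to 0.664%.

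**Figure D1:**
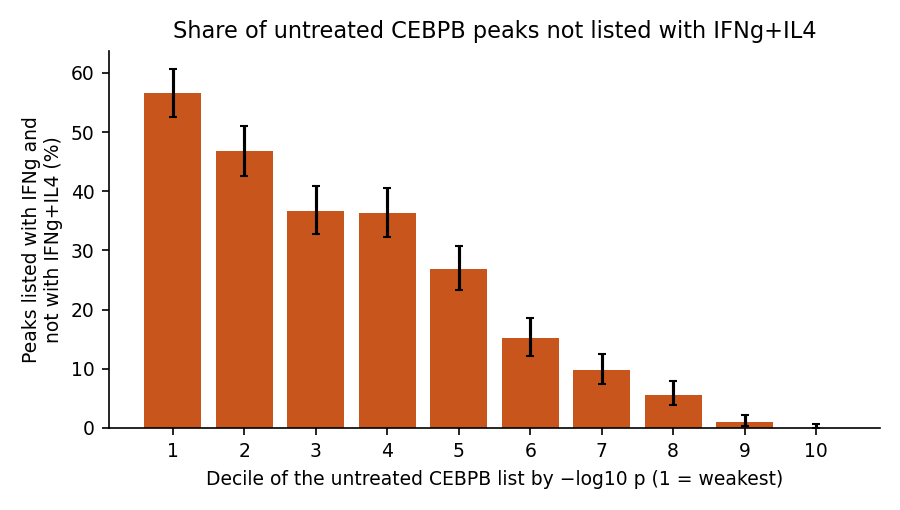
Bars give, for each decile of the untreated CEBPB list by −log10 p (decile 1 is the weakest), the percent of peaks listed with IFNg and not with IFNg+IL4. Lines are exact 95% intervals of the share, which cover counting error only. The share is 56.6% in the weakest decile and 0% in the strongest.

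Most were above the weakest summits of the IFNg+IL4 list. Scaled to the depth of the input, the untreated summit of 1128 unlisted sites (86.3%) was higher than the lowest decile of summits in the IFNg+IL4 list, which ended at 16 fragments. At 383 of them (29.3%, 26.8 to 31.9) it was higher than the median summit of that list, 25.9 fragments. Among common sites 74.5% were above that median. The 3 unlisted sites closest to an IFNg+IL4 peak lay 59 bp from it near Tet2, 87 bp near Retreg1 and 92 bp near Kcnip1. The 3 common sites with the smallest overlap shared 35 bp near Ednrb, 53 bp near Myc and 84 bp near Carmil1. The median distance to the nearest IFNg+IL4 summit was 53.8 kb, 34 sites had one within 1 kb (2.6%) and 470 had none within 100 kb (36%).

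With IFNg alone, CEBPB signal at the unlisted sites was higher than in untreated cells, as it was over the whole untreated list. The rule required an IFNg peak at each site, so these values are a description. At the summit the median was 62 fragments with IFNg (15 to 187) and 32 untreated, or at input depth 46.6 fragments with IFNg and 22 untreated. The ratio of IFNg to untreated pileup had a median of 2.06 at unlisted sites, with an interquartile range of 1.65 to 2.51. The median was 2.53 at common sites (2.16 to 2.99) and 2.43 over the whole untreated list (2.03 to 2.9). The pileup was higher with IFNg at 1274 of 1307 unlisted sites (97.5%) and at 99.9% of common sites. Almost all of the untreated list was again called with IFNg (99.9%). Summits were in place: 91.4% of unlisted and 95.1% of common sites had an IFNg summit within 50 bp of the untreated one. In the IFNg list of 21499 peaks their median rank was 6288 (interquartile range 4742 to 8614), against 2226 for common sites (1072 to 3636).

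Among sites of like strength in untreated cells, the unlisted ones had less signal under IFNg than the common ones. Of 5 classes by untreated −log10 p (quintiles), the weakest had a median of 56 fragments with IFNg at unlisted sites and 84 at common sites, beside 27 untreated fragments at unlisted and 29 at common sites. In quintile 2 the IFNg medians were 62 at unlisted and 93 at common sites, in quintile 3 69 at unlisted and 108 at common sites, and in quintile 4 81.5 at unlisted and 138 at common sites. The quintiles were cut on the untreated −log10 p, with which the untreated pileup rises, so a trend of a ratio to that pileup is a description only. The ratio of IFNg to untreated pileup decreased along these quintiles in both sets. It was 2.24 at unlisted and 3.1 at common sites in the weakest, and 1.57 at unlisted and 2.5 at common sites in quintile 4. The strongest quintile held only 5 unlisted sites, with a median of 98 fragments with IFNg, against 197 at its 1103 common sites.

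**Figure D2:**
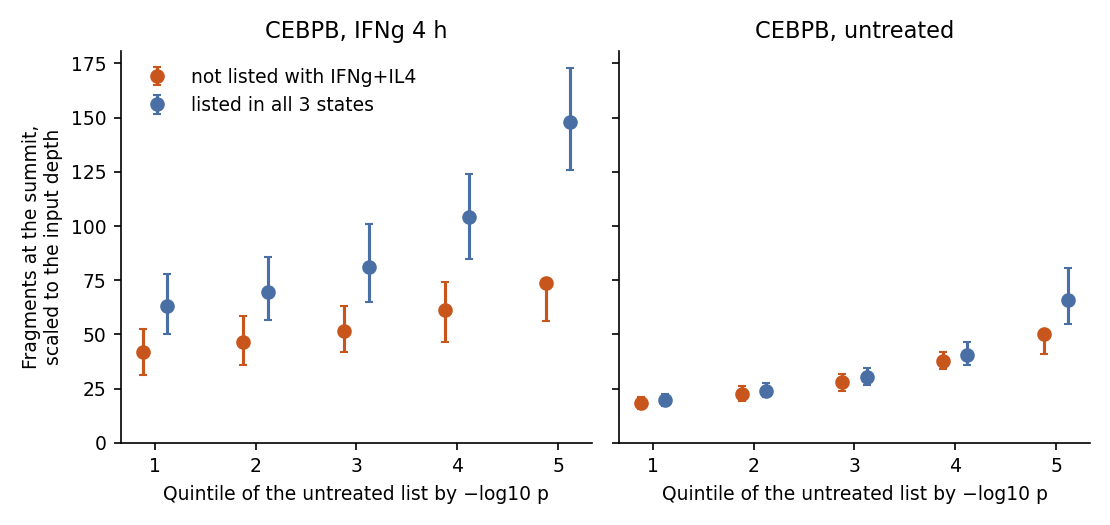
Points are medians and lines interquartile ranges of the CEBPB fragments over the summit, scaled to the input depth, with IFNg (left) and untreated (right), by quintile of the untreated list (1 is the weakest). In the first 4 quintiles the untreated medians of both sets lie close together (in the weakest, 18.6 at unlisted and 19.9 at common sites), while the IFNg medians of unlisted sites lie below those of common sites (42.1 at unlisted and 63.1 at common sites).

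The strongest unlisted site in untreated cells, at chr5:90862012-90862307 (GRCm38), lay 29.1 kb from Cxcl1, a chemokine gene for neutrophil recruitment. It had 98 fragments with IFNg and 73 untreated, and held rank 711 in the untreated list. A second unlisted site 9.37 kb from Cxcl1 had 42 fragments with IFNg and 34 untreated. Another, between Cxcl1 and its neighbour Cxcl2, 5.19 kb from Cxcl2, had 73 with IFNg and 32 untreated. Of the 3 untreated peaks within 20 kb of Cxcl1 1 was a common site.

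The next strongest untreated sites were 26 kb from Snx16, a sorting nexin gene, with 56 fragments with IFNg, and inside Lrmda, with 75. Those inside Xylt1, a xylosyltransferase gene of proteoglycan synthesis, and near Pgm2l1, which makes glucose bisphosphate, had 100 and 115 fragments with IFNg. The Xylt1 site lay 1.22 kb from an IFNg+IL4 summit and the Lrmda site 369 kb. Over the 20 strongest, counts with IFNg ran between 43 and 156. Their nearest genes included F13a1 and Ptafr, which have a known macrophage function. A site 71.5 kb from F13a1, the coagulation factor XIII subunit A made by alternatively activated macrophages, had 98 fragments with IFNg (ratio 1.34 to untreated). The site 28.1 kb from Ptafr, the receptor of platelet-activating factor, had 109 (ratio 1.75). The Mef2c site, 439 kb from that transcription factor gene, had the most fragments with IFNg of the 20, 156. The genes nearest to the others were Ccdc54, Cdk14, Agfg1, Cnot2, Ergic1, Ttc7, Dlg2, Cpd, Riok2, Prmt3, Nxpe4 and Pfpl. At Dlg2 and Riok2 the scaled signal was lower with IFNg, at 0.839 and 0.954 times untreated.

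Ranked by the IFNg list, the first unlisted site lay 12.4 kb from Retreg1, a receptor for autophagy of the endoplasmic reticulum, with 187 fragments with IFNg and 27 untreated. The second lay 1.47 kb from Klf3, a zinc finger repressor gene, with 181 with IFNg and 25 untreated. A site inside Nod1, the cytosolic sensor of bacterial peptidoglycan, had 159 with IFNg and 25 untreated. Those were ratios of 7.57, 7.91 and 6.95 at input depth, among the highest of unlisted sites, whose maximum was 7.91. The Retreg1 and Nod1 sites lay 0.326 and 0.335 kb from an IFNg+IL4 summit, so a summit next to them was still listed. Whether their IFNg counts, read at the summit of the overlapping IFNg peak, belong to that neighbouring summit was not tested. For the other sites of the strongest 10 with IFNg the nearest genes included Trim13 (an E3 ubiquitin ligase), Cbwd1, Lpcat2 (which makes platelet-activating factor) and Nxpe4. The rest were Ndufb6 (a subunit of respiratory complex I, 85.1 kb away), Mzt1 (159 kb away) and Cnot2 (a subunit of the CCR4-NOT deadenylase). The IFNg counts of these sites ran between 118 and 163 fragments and their ratios between 2.11 and 4.51.

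Across genes, 1266 of 21887 protein-coding genes (5.78%) had an unlisted site within 20 kb, out of 4521 (20.7%) with any untreated CEBPB peak. Of the genes with an untreated peak 28% thus had an unlisted site. At 610 of the 1266 genes another CEBPB peak was still listed with IFNg+IL4 within the same window, and at 656 none was. Long genes held the most unlisted sites. Magi2, a scaffold protein gene of 1485 kb, had 5 of them beside 2 common sites. Abca13, a lipid transporter gene, and Ptpre, a protein tyrosine phosphatase gene, had 4 each beside 1. Bcl2 (the inhibitor of apoptosis), Foxp1 (a forkhead transcription factor), Itpr2 (a calcium release channel), Iqgap2, Rnf150, Shisa9 and Cbwd1 had 3 each. Cbwd1 differed from these in length, with a span of 42 kb, and all 3 of its untreated peaks were unlisted with no IFNg+IL4 peak within 20 kb.

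Of the genes of macrophage identity 6 of the 18 with an untreated peak had an unlisted site (33.3%, against 28% of all such genes). The unlisted site near Itgam, the integrin CD11b, had 76 fragments with IFNg and 38 untreated, and 3 other sites there were common. At Mertk, a receptor for uptake of apoptotic cells, it had 63 with IFNg and 42 untreated, beside 3 common sites. In Msr1, the scavenger receptor A gene, it had 81 with IFNg and 30 untreated, also beside 3 common sites. The site near Tyrobp, the adaptor DAP12, had 99 with IFNg and 30 untreated. Runx1, a haematopoietic transcription factor gene, and Cd14, the co-receptor for lipopolysaccharide, had 2 unlisted and 2 common sites each. All 6 genes had between 1 and 3 listed IFNg+IL4 peaks within 20 kb.

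Among inflammatory and AP-1 response genes 8 of 22 with an untreated peak had an unlisted site (36.4%). Beside Cxcl1 and Cxcl2 these were Ccl3 and Ccl4, chemokine genes that share 1 unlisted site with 66 fragments with IFNg and 52 untreated. Dusp1, a phosphatase that inactivates MAP kinases, had 2 unlisted sites, 1.16 and 4.13 kb away, with 52 and 68 fragments with IFNg, and 24 and 42 untreated. Tnf, the tumour necrosis factor gene, had its only untreated peak unlisted. It lay 11 kb away inside Lst1 and had 63 fragments with IFNg and 42 untreated, and 1 other CEBPB peak was listed with IFNg+IL4 within 20 kb. The site near Socs3, a feedback inhibitor of cytokine receptors, had 63 fragments with IFNg and 40 untreated, and that near Hmox1, the haem-degrading oxygenase, 96 with IFNg and 49 untreated. Of known C/EBP target genes of myeloid cells 6 of 16 had one (37.5%). These were Cd14, Ccl3 and Tnf again, Mmp8 (neutrophil collagenase) with the 2 sites at its neighbour Mmp27, and Clec4d and Clec4e, neighbouring C-type lectin genes with 1 shared site of 45 fragments with IFNg and 28 untreated.

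Of IFNg response genes 1 of 12 with an untreated peak had an unlisted site (8.33%, against 28% of all genes with an untreated peak), Gbp5, a guanylate-binding protein gene, with 69 fragments with IFNg and 31 untreated. Of IL4 response genes it was 1 of 13 (7.69%), Alox15, a lipoxygenase gene, with 40 with IFNg and 35 untreated. No interval was computed for the shares of the gene lists, here and above. With so few genes they do not show a difference from 28%. Of genes for C/EBP and partner factors 2 of 12 had an unlisted site (16.7%). Atf4, a factor of the stress response, had 64 fragments with IFNg and 33 untreated at its only untreated peak, with no IFNg+IL4 peak within 20 kb. The site near Fosb, an AP-1 subunit, had 57 with IFNg and 30 untreated. Of genes of lipid, lysosome and iron handling it was 4 of 18 (22.2%). They were Hmox1, Apoe (apolipoprotein E), Ctsd and Ctsl (cathepsins), of which Ctsl had the largest ratio of IFNg to untreated, 3.58. Markers of other cell types had none, with 3 genes near any untreated peak. Of the genes of other organs 2 of 3 had one, Ttr and Syn1, and the site counted for Syn1 lay inside Cfp, the properdin gene.

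**Figure D3:**
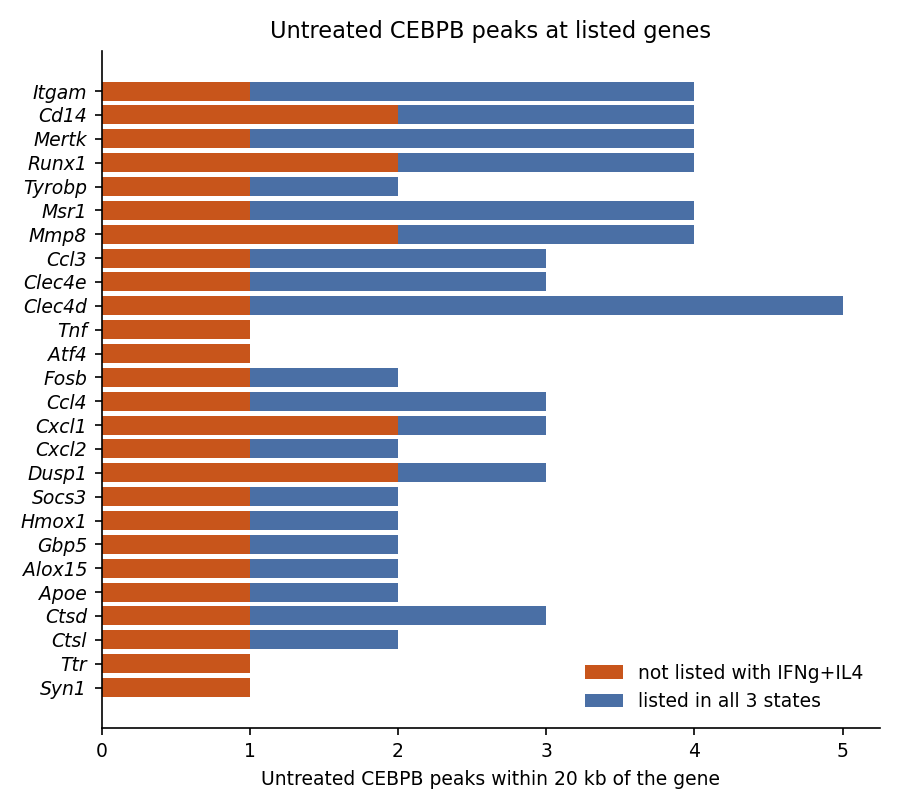
Bars give, for each gene of the lists with an unlisted site, the number of untreated CEBPB peaks within 20 kb of it, split into those not listed with IFNg+IL4 and those listed in all 3 states. Tnf, Atf4, Ttr and Syn1 had a single peak, which was unlisted, and Cd14, Runx1 and Mmp8 had 2 unlisted and 2 common peaks each.

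Other factors were found less often at the unlisted sites, a measure the rule did not use. Only 454 of 1307 (34.7%, 32.2 to 37.4) lay over a peak of any of the 13 lists of JUNB, STAT6, IRF1 and MYC, against 3030 of 4225 common sites (71.7%, 70.3 to 73.1) and 62.9% of the whole untreated list. Peaks of 4 or more of these lists coincided at 5.74% of unlisted and 31% of common sites.

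JUNB peaks with IFNg+IL4 covered 43 unlisted sites (3.29%, 2.39 to 4.41), against 21% of common sites (19.8 to 22.3) and 16.8% of the whole list. JUNB peaks with IFNg covered 98 unlisted sites (7.5%), against 30.5% of common sites and 25% of the whole list. JUNB peaks of untreated cells covered 235 unlisted sites (18%), against 41% of common sites and 35.5% of the whole list. The untreated JUNB list had been cut at a looser threshold than the others. At theirs the shares were 11.3% of unlisted and 28.9% of common sites. At that threshold, JUNB was listed again with IFNg+IL4 at 37 of 148 unlisted sites with JUNB untreated (25%, 18.3 to 32.8), against 58.7% of such common sites (55.9 to 61.5). It was listed again with IFNg at 43.2% of these unlisted sites (35.1 to 51.6) and 74.4% of these common sites (71.8 to 76.8). With the deposited list the shares were 17% of 235 unlisted and 46.5% of 1732 common sites with IFNg+IL4, and 32.8% of unlisted and 63% of common sites with IFNg. Without JUNB untreated, 3 of 1072 unlisted sites had JUNB with IFNg+IL4 (0.28%, 0.0577 to 0.816), against 82 of 2493 common sites (3.29%, 2.62 to 4.07). Named after their values were seen, the 3 lay inside Bcl2, inside Ptprk (a receptor tyrosine phosphatase gene) and 153 kb from Nrip1, a nuclear receptor corepressor gene.

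STAT6, the factor that IL4 activates, was at 163 unlisted sites with IFNg+IL4 (12.5%, 10.7 to 14.4), against 47% of common sites (45.4 to 48.5) and 38.8% of the whole list. With IL4 alone it was at 264 unlisted sites (20.2%, 18.1 to 22.5), against 53.7% of common sites (52.2 to 55.2) and 45.7% of the whole list. Of the unlisted sites with STAT6 after IL4, 54.5% (48.3 to 60.7) had it with IFNg+IL4 as well, compared with 80.6% (78.9 to 82.2) of such common sites. STAT6 was taken at 2 h and CEBPB at 4 h. Where both were present, STAT6 peaks with IFNg+IL4 stood at a median percentile of 44.5 within their own list at unlisted sites and 63.2 at common sites. The median distance between the summits was 51 bp at unlisted and 40 bp at common sites.

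IRF1 peaks were rare at unlisted sites. They covered 9 unlisted sites with IFNg+IL4 (0.689%, 0.315 to 1.3), against 8.83% of common sites and 6.9% of the whole list. With IFNg they covered 1 unlisted site (0.0765%, up to 0.426), against 3.01% of common sites and 2.31% of the whole list. The untreated IRF1 list, of 244 peaks, also met 1 (0.0765%), against 0.142% of common sites and 0.126% of the whole list. Named after their values were seen, the 9 had Ltbp2, Vsig4, Mto1, Esyt1, Ttll5, Adgb, Hexim1, Klf3 and Ccdc18 as their nearest genes. The 1 with IFNg and the 1 untreated were both the site near Hexim1, which encodes an inhibitor of transcription elongation. Vsig4 encodes a complement receptor of tissue macrophages. The site, 19.2 kb from it, carried 26 fragments with IFNg and 29 untreated, or 19.5 with IFNg and 19.9 untreated at input depth.

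MYC was also less frequent at unlisted sites. Its peaks covered 0.918% of them after 2 h of IFNg+IL4, against 3.64% of common sites and 3% of the whole list. After 4 h of IFNg+IL4 they covered 1.38%, against 4.5% of common sites and 3.75% of the whole list. After 2 h of IL4 they covered 6.35% (5.09 to 7.81), against 19.3% of common sites (18.1 to 20.5) and 16.2% of the whole list. After 4 h of IL4 they covered 3.98%, against 13.4% of common sites and 11.2% of the whole list. In untreated cells they covered 0.23%, against 0.615% of common sites and 0.523% of the whole list, with intervals of the 2 sets that overlapped. Some unlisted sites lay over peaks of several lists. Named after their values were seen, sites inside Arsg, a lysosomal sulfatase gene, and Rab7b, a GTPase gene of late endosomes, lay over 8 of the 13 lists each, all of JUNB, STAT6 or MYC.

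**Figure D4:**
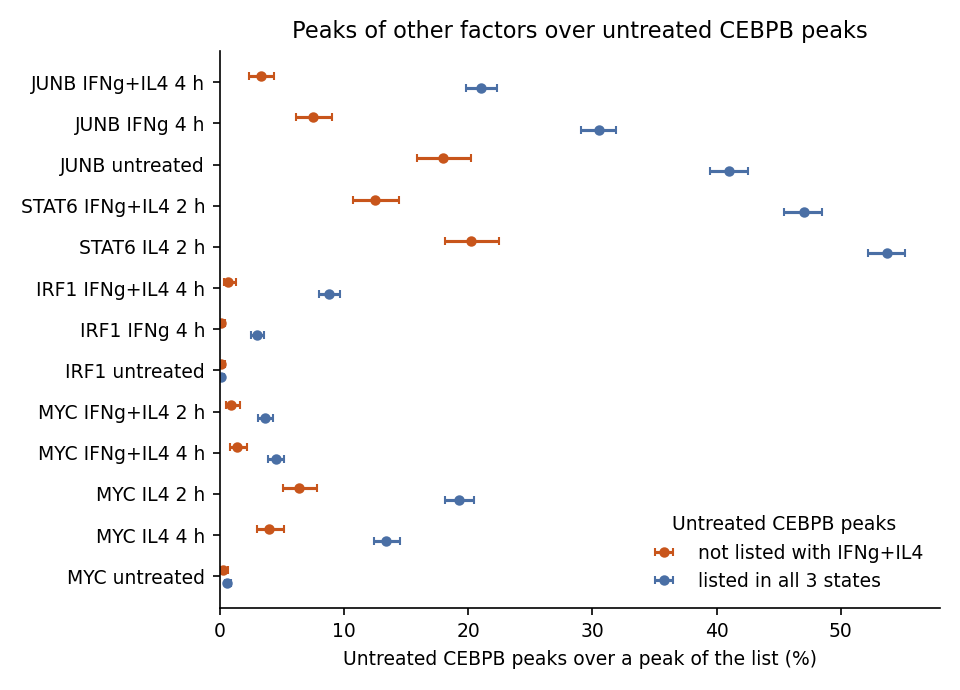
Points give the percent of untreated CEBPB peaks that overlap a peak of each list of another factor, for unlisted and common sites, with exact 95% intervals (counting error only). The unlisted sites lie lower in every list, for example for STAT6 with IFNg+IL4 (12.5% of unlisted and 47% of common sites). For untreated IRF1 and untreated MYC the intervals overlap.

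The difference in overlap with JUNB and STAT6 peaks was there among sites of like untreated CEBPB strength. These sites still differed in CEBPB signal with IFNg as given above. In the weakest quintile of the untreated list JUNB with IFNg+IL4 was at 4.32% of 579 unlisted sites (2.81 to 6.31) and at 27.1% of 536 common sites (23.3 to 31). It was at 1.99% of unlisted and 20.4% of common sites in quintile 2, and at 2.12% of unlisted and 17.7% of common sites in quintile 3. In quintile 4 it was at 5.95% (1.96 to 13.3) of 84 unlisted and 17.5% (15.2 to 20) of 1016 common sites. STAT6 with IFNg+IL4 was at 15.4% of unlisted and 50% of common sites in the weakest quintile, and at 14.3% of unlisted (7.61 to 23.6) and 43.6% of common sites (40.5 to 46.7) in quintile 4. STAT6 with IL4 was at 22.1% of unlisted and 52.1% of common sites in the weakest, and at 20.2% of unlisted and 53.1% of common sites in quintile 4. JUNB of untreated cells was at 28.6% of unlisted (19.2 to 39.5) and 40.6% of common sites (37.6 to 43.7) in quintile 4, where the intervals overlapped. None of the 5 unlisted sites of the strongest quintile had STAT6 or treated JUNB. The factor lists differ in depth and length, so shares are compared between the 2 sets of sites within a list and not between lists.

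**Figure D5:**
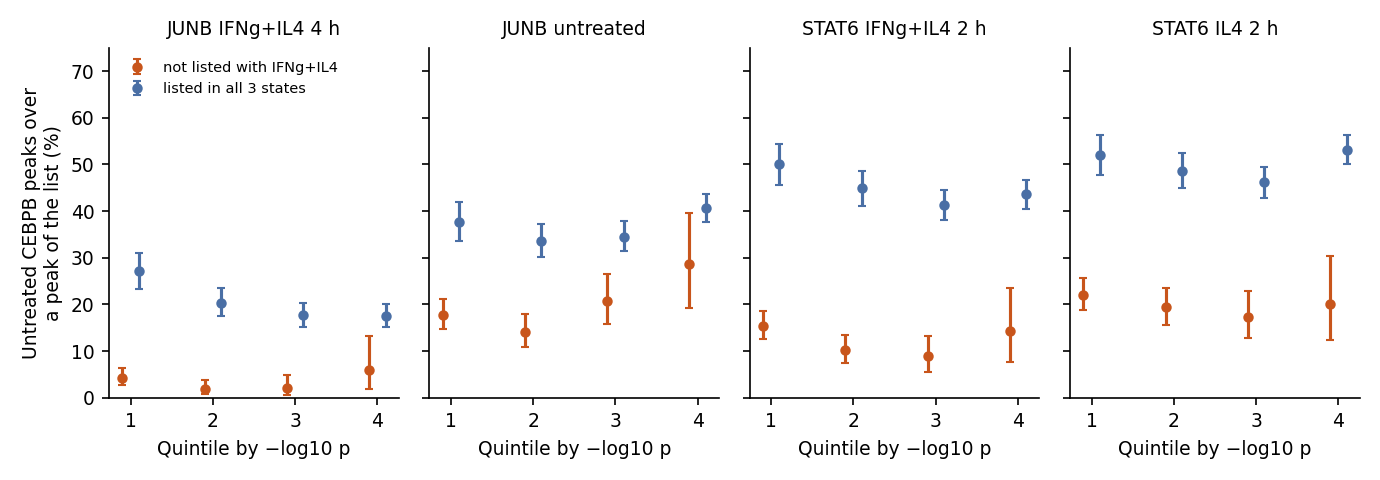
Points give the percent of untreated CEBPB peaks over a JUNB or STAT6 peak in the weakest 4 quintiles of the untreated list by −log10 p (1 is the weakest), for unlisted and common sites, with exact 95% intervals. The intervals of the sets are apart in each of these quintiles except for untreated JUNB in quintile 4 (28.6% of unlisted and 40.6% of common sites).

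Unlisted sites lay farther from gene starts. Of 1264 sites off chromosome 18, which the table of gene starts does not cover, 83 had their summit within 1 kb of a gene start (6.57%, 5.26 to 8.08), against 12% of common sites (11.1 to 13.1) and 10.8% of the whole list. The median distance to a gene start was 19.8 kb for unlisted and 15.9 kb for common sites. The share with a summit inside a protein-coding gene was alike, at 52% (49.3 to 54.8) of unlisted sites, 52.9% (51.4 to 54.4) of common sites and 52.7% of the whole list. Chromosome X held 3.06% (2.2 to 4.14) of unlisted and 1.78% (1.4 to 2.22) of common sites.

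For treated JUNB and for STAT6 the intervals of unlisted and common sites were apart both near gene starts and away from them. For every IRF1 and MYC list the intervals overlapped within 1 kb. IRF1 with IFNg+IL4, for example, was there at 2.41% of unlisted (0.293 to 8.43) and 9.29% of common sites (6.88 to 12.2). Beyond 1 kb from a gene start 33.4% (30.8 to 36.2) of unlisted sites lay over a peak of another factor, against 71.3% (69.8 to 72.8) of common sites. Within 1 kb it was 54.2% of unlisted (42.9 to 65.2) against 76.2% of common sites (72.2 to 79.9). JUNB with IFNg+IL4 was at 1 of the 83 unlisted sites within 1 kb of a start, and at 10.3% of such common sites. STAT6 with IFNg+IL4 was at 16.9% (9.54 to 26.7) of these unlisted sites and 47.3% (42.8 to 51.8) of common ones. For JUNB of untreated cells the intervals overlapped within 1 kb, at 16.9% of unlisted (9.54 to 26.7) and 24.2% of common sites (20.5 to 28.3). MYC after 2 h of IL4 sat near starts in both sets. It covered 28.9% (19.5 to 39.9) of unlisted and 41.4% (37 to 45.9) of common sites within 1 kb, with overlapping intervals, and 4.83% of unlisted and 16.3% of common sites farther away.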

How the data were processed

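Per the submitters' processing notes, the tools behind the 17 ChIP-seq libraries were Bowtie2 2.2.6 (alignment) and MACS2 2.1.0.20150731 (peaks), with mm10/GRCm38 as the genome; tool settings: not given in the sources used here. The authors deposited 1 narrowPeak list per library, with a score, a fold enrichment (a ratio of signal to control at the summit), −log10 p and −log10 q values and the summit offset for each peak. Only chromosomes 1 to 19, X and Y were used, without peaks over 1 of 128 input peaks, which removed 0 CEBPB peaks. By its values the untreated JUNB list was cut on p, since 5355 of its 9229 peaks had a −log10 q of at least 2, as did all peaks of the other lists.

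Fragments at a summit and the depth relative to the input were solved from fold and −log10 p, as whole numbers within 0.01, up to a −log10 p of 290. This assumes the same input and linear scaling for each list, and was tested on simulated data. Overlap was at least 1 bp. Shares carry exact Clopper-Pearson 95% intervals, which cover counting error only. Genes came from RefSeq (GRCm38, 21887 protein-coding), matched by symbol. Genes were named when nearest to the 20 strongest untreated or 10 strongest IFNg sites, among the 10 with most sites, or in a list with a site within 20 kb. The sites and lists were chosen with earlier results of these data known. With 1 library per group no test between groups was run. The planned search for C/EBP motifs around every summit was replaced by one in promoter windows. Python 3.11.15 with numpy 2.4.6, pandas 2.3.3 and scipy 1.17.1 was used. Some results are not reported here.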

Additional observations from a re-analysis of the deposited data

How the results depend on the processing

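All 54 shares of JUNB, STAT6, IRF1 and closeness to a gene start, the reported ones included, were lower at unlisted than at common sites. The settings reuse the same peak lists, so the 54 are not independent of each other. Of 56 alternative values 41 stayed within 1.5 times the reported count or within the interval of the reported share. These 41 include the values with input peaks kept. Those equal the reported ones, since input removal had taken out 0 CEBPB peaks, and so show nothing about stability. With the IFNg list cut to its 6278 strongest peaks, 650 sites remained in place of 1307, of which 20.3% had JUNB untreated (common sites 41.4%) and 9.08% JUNB with IFNg (31.2%). With a reciprocal overlap of 50%, 5.35% had JUNB with IFNg (common sites 28.5%), 2.05% JUNB with IFNg+IL4 (19.2%) and 10.3% STAT6 with IFNg+IL4 (45.6%). With the other factor's summit required within 100 bp the shares were 14.7% for JUNB untreated (common sites 35.4%), 5.74% for JUNB with IFNg (26.4%), 2.22% for JUNB with IFNg+IL4 (17.3%), 8.49% for STAT6 with IFNg+IL4 (38.2%) and 0.23% for IRF1 with IFNg+IL4 (6.18%). Cut at a −log10 q of 5, the untreated JUNB list covered 6.04% (common sites 19.1%), and cut at 2, a choice made after seeing the data, 11.3% (28.9%). Within 5 kb of a gene start lay 20.6% (common sites 26.4%). The number of listed genes with a site was 26, and 12 with a window of 5 kb or 37 with 50 kb. Each cause was not tested beyond the stricter or wider definition itself.

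No paired analysis was possible because each group was 1 library and no test was run. The motif alternatives were not run, since sequences were searched in promoter windows only. Whether a site missing from the IFNg+IL4 list held CEBPB below its threshold cannot be told from the list, and no replicate shows how many peaks 2 libraries of 1 state would differ by.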
